A study of Mus musculus with 2 samples.

Results

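The transcripts of 10 signalling genes of the ovarian follicle were followed in low-input RNA-seq libraries of differentiated mouse female germline stem cells (FGSCs). The genes were a list of known ligands and receptors exchanged between oocytes and granulosa cells, together with the proteins that bind them, and the rule that lists them uses no measured value. They comprised the KIT ligand Kitl and its receptor Kit, the activin and inhibin subunits Inha, Inhba and Inhbb, the activin-binding proteins Fst and Fstl3, the anti-Müllerian hormone gene Amh, and the oocyte ligands Gdf9 and Bmp15. Of these 10 genes, 8 had at least 1 ID in the count tables that belonged to no other gene, out of 51375 genes with such an ID. The remaining genes, Inha and Bmp15, were represented only by IDs that could also belong to a neighbouring gene.

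The data comprised 2 Smart-seq libraries of a single group, and no undifferentiated, untreated or granulosa-cell library was analysed here, so every value below is a level and none is a response to the treatment. Each library was made from polyadenylated RNA of 5 to 8 cells. The cells were female and of the CD-1 strain, with no mutation or transgene listed. The FGSCs had been cultured for 3 days on a monolayer of granulosa cells, in medium lacking GDNF, EGF and LIF but holding 10 µM retinoic acid and 10 ng/mL BMP4, and are labelled as premeiotic interphase. Nothing in the sources used here says whether the 2 libraries came from separate cultures, or how the cells were separated from the granulosa monolayer for these libraries.

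KIT ligand, made by granulosa cells, binds the receptor tyrosine kinase KIT on germ cells and oocytes and supports their survival and growth. Activins are dimers of inhibin beta subunits that signal through SMAD2 and SMAD3, inhibins pair a beta with the alpha subunit and oppose activin, and follistatin binds activin and keeps it from its receptors. GDF9 and BMP15 run the other way, from the oocyte to the granulosa cells, whereas AMH is a hormone of the granulosa cells of growing follicles.

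Replicate 1 held 1517151 counts and replicate 2 held 12442, so that 1 count equalled 0.659 counts per 1000000 counts of the library (CPM) in the former and 80.4 CPM in the latter. A count of 0 allowed up to 3 counts, which is 1.98 CPM in replicate 1 and 241 CPM in replicate 2, and intervals and limits cover counting error only, since PCR copies are not independent molecules. The labelled germline identity was checked against marker genes. In separate assays, the study reports Stra8 and Sycp3 transcripts in the induced cells by RT-PCR, and Stra8 protein by immunofluorescence. The RT-PCR panel also included Pou5f1, Ddx4 and Ifitm3 under the names Oct4, Mvh and Fragilis. The text of the study does not describe their outcome. The values below cover these 2 libraries only. In replicate 1, 0 of the 10 germline markers with an ID of their own reached 3 counts, and the oocyte markers gave 0 of 11. Ddx4, Dazl, Pou5f1, Stra8 and Sycp3 were at 0 on their own IDs in both libraries. Their exonic bases under 1 listed ID numbered 254, 881, 1556, 348 and 604, in that order. Of protein-coding genes with fewer than 300 such bases, 7.89% reached 3 counts in replicate 1, and of those with 300 to 1000, 20.4%. The 0 of these markers, except Pou5f1, therefore carries less weight. Prdm1 and Zbtb16, with 4960 and 5283 such bases, were also at 0 in both libraries. Of protein-coding genes with 3000 or more such bases, 48.9% reached 3 counts in replicate 1. Fibroblast markers gave 6 of 12 and granulosa cell markers 4 of 12, beside 33.3% of all 18278 protein-coding genes with an ID of their own. Among the fibroblast markers, Dcn had 2281 counts (1503 CPM) in replicate 1 but 0 in replicate 2, where 0 allows up to 241 CPM, whereas Lum and Pdgfrb stood at 0 and Thy1, Vim and Fn1 at 1 count in replicate 1. The leading granulosa marker was Gja1, a gap junction gene that many cell types express, with 224 counts, and Foxl2 and Cyp19a1 were at 0 in both libraries. The summed level of the fibroblast markers was 2917 CPM in replicate 1 and 1447 CPM in replicate 2, that of the granulosa markers was 159 and 241 CPM, and that of the germline markers was 0 and 402 CPM, the latter from 5 counts of Tfap2c. Ifitm3 had no ID of its own, and the IDs that could be Ifitm3 or a neighbouring Ifitm gene held 10577 and 6 counts. The part of other cell types in the levels below was not tested, and in these pooled cells fewer cells of a type and less RNA per cell cannot be told apart.

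At least 3 counts were reached by 3 of the 10 genes in replicate 1 (Kitl, Fst and Inhba) and by 0 in replicate 2. Across all 18278 protein-coding genes with an ID of their own, 33.3% reached 3 counts in replicate 1 and 3.83% in replicate 2, beside 3 of 8 and 0 of 8 among the signalling genes with such an ID. At least 1 count was seen for 4 of these 8 in replicate 1, against 44.3% of the protein-coding genes, and for 1 of the 8 in replicate 2, against 12.8%. Kitl was the gene of the list that had a count in both libraries, which held for 8.48% of the protein-coding genes. The 10 genes together had 709 counts in replicate 1, of which 96.2% fell on Kitl and Fst, and 1 count in replicate 2.

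**Figure D1:**
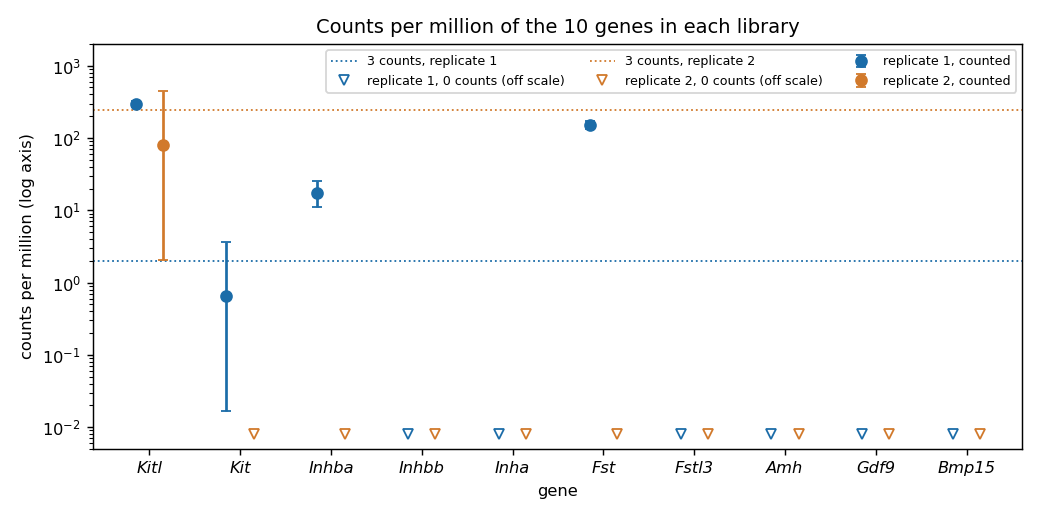
Level of each gene in CPM on a log axis in replicate 1 (blue) and replicate 2 (orange), with exact Poisson 95% intervals for the counted genes, open triangles at the foot of the axis for genes with 0 counts, and dotted lines at the level of 3 counts. Kitl, Fst and Inhba lie above the line of replicate 1 at 299, 151 and 17.1 CPM, and in replicate 2 only Kitl has a count, below the line at 241 CPM.

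Kitl had the most counts of the 10 genes. It spans chr10:100015630-100100416 on the plus strand (GRCm38) and received 453 counts in replicate 1 but a single count in replicate 2. These correspond to 299 CPM (95% interval 272 to 327) and 80.4 CPM (2.03 to 448), with a mean of 189 ± 154 CPM (SD, n = 2). On library totals, the interval of the shallow library contains the level of the deep library, whose share would have given 3.72 counts there. A difference between the libraries was therefore not detectable on these totals. The TMM totals used in the closing section are 484392 and 38969, which are less far apart, so more counts would be expected in replicate 2. The comparison was not made on that scale, where the libraries could lie apart. Expressed as FPKM, that is CPM divided by the exonic length in kilobases, Kitl reached 50.5 (46.0 to 55.4) in replicate 1. This was higher than 95.8% of the protein-coding genes, whose median was 2.76 FPKM and 90th percentile 47.4 FPKM among the 8089 with a count. By FPKM, Kitl ranked 760 of 18278.

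The KIT ligand protein exists in a form that is cut from the membrane and a form that largely stays on it, and the forms differ by exon 6, which encodes the cleavage site. Exon 6 lies at chr10:100080857-100080940 and has 84 bases. The 2 coding forms of the GENCODE M21 transcripts are shown around this exon, 5′ to 3′, with the bases of exon 6 in capitals and 24 bases of each neighbouring exon in lower case.

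Kitl with exon 6: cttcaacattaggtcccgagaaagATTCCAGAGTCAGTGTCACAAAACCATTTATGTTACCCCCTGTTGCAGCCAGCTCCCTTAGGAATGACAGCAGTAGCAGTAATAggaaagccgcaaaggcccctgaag

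Kitl without exon 6: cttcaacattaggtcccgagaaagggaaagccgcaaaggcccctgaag

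Of the 453 counts in replicate 1, 99.3% were on a single protein accession, and the other 3 counts were on a non-coding transcript of the gene. The gene of each protein accession was inferred from its place in the table, so the levels of Kitl, Fst and Inhba rest on that inference, and Ensembl IDs alone gave 3, 26 and 0 counts in replicate 1. The deposited tables count each ID separately, and bases shared by several IDs gave almost no counts. Of 10296 Ensembl transcripts whose bases were all shared, 1 was counted in replicate 1, whereas 5312 of the 36859 transcripts with at least 300 own bases were. The annotated transcript with exon 6 has 3513 bases of its own, mostly at its 3′ end, while the transcript without exon 6 has 0. The 450 counts of the leading accession therefore could not be divided between the membrane and the cleaved form.

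Kit, the receptor tyrosine kinase bound by KIT ligand, had 1 count in replicate 1 and 0 in replicate 2 (chr5:75574916-75656722, plus strand). The count lay on a transcript that retains an intron, and the coding accession had 0 counts in both libraries although 1357 of its 5253 bases were its own. The level in replicate 1 was 0.074 FPKM (0.0019 to 0.41). Kitl exceeded Kit by a ratio of 683 per exonic kilobase (122 to 27032), an interval that is wide because a single count stands on the side of Kit. Per kilobase that belongs to 1 ID, the ratio was 559 (99.9 to 22134). At the 3′ end, Kitl had a stretch of 3235 own bases and Kit had 28. Of the 4661 own bases of Kit, 2627 lay inside an intron of its coding transcripts. The part of this difference in the ratio was not tested. In replicate 2, a Kit level below 27.1 FPKM would give fewer than 3 counts, so that library was uninformative on the receptor.

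Of 16 signalling partners of KIT, 9 had at least 3 counts in replicate 1 and 7 were at 0 on their own IDs, beside 33.3% of all protein-coding genes with at least 3 counts. In replicate 2, 2 of the 16 had at least 3 counts, beside 3.83%. The kinases Pdpk1 and Akt1 had 123 and 115 counts in replicate 1 and 0 in replicate 2. Cbl, a ubiquitin ligase for activated receptors, had 92 and 1 counts. Foxo3, the transcription factor that this pathway restrains in oocytes, had 22 and 6 counts. These equal 14.5 and 482 CPM, a difference between the libraries that was not tested. Pik3ca was at 0 in both libraries. The KIT partners are general signalling genes of many cell types.

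Among the subunits of activin and inhibin, Inhba alone was counted. Inhba encodes the beta A subunit (chr13:16011851-16031621, plus strand) and had 26 counts in replicate 1 and 0 in replicate 2. Its level in replicate 1 was 17.1 CPM (11.2 to 25.1), or 2.68 FPKM (1.75 to 3.93), close to the median of 2.76 FPKM among counted protein-coding genes. All of its 6390 exonic bases belonged to 1 ID, so no part of the gene was lost to sharing. At the share of replicate 1, replicate 2 would have held 0.213 counts, and its 0 therefore adds nothing on this subunit. Inhbb, which encodes the beta B subunit (chr1:119415465-119422248, minus strand), had 0 counts in both libraries with all 4255 exonic bases countable. Its level in replicate 1 was thus below 0.465 FPKM, the value of 3 counts. Inhba exceeded this limit 5.77-fold per exonic kilobase, leaving out the counting error of Inhba. Inha, the alpha subunit that makes a dimer an inhibin (chr1:75507077-75510366, plus strand), had 0 counts in replicate 1, where 3 counts equal 1.34 FPKM. Replicate 2 held 1 count on the ID that could be Inha or its neighbour Stk11ip. A single count in replicate 2 beside 0 in replicate 1 was seen for 395 protein-coding genes, or 2.16%.

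Follistatin was the second gene with a clear signal. Fst (chr13:114452290-114458951, minus strand) received 229 counts in replicate 1, whereas replicate 2 held 0. In the deep library this was 151 CPM (132 to 172), or 32.9 FPKM (28.8 to 37.4), higher than 94.0% of the protein-coding genes. The 0 of replicate 2 allows up to 241 CPM, above the level of replicate 1, and 1.88 counts would have been found at the same share. Hence, on library totals, the libraries could not be distinguished for Fst either, and the TMM totals were not used for this comparison.

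The 2 follistatin precursors differ in their last exon. The longer one carries an acidic tail and gives the circulating protein, and the shorter one ends at the exon junction and gives the form that binds to cell surfaces. The coding sequence from the last 24 bases of exon 5 (lower case) to the stop codon is shown for both transcripts, 5′ to 3′ on the minus strand, with the bases of exon 6 in capitals. The capitals lie at chr13:114453423-114453505 in the longer form, with 83 bases, and at chr13:114453804-114453805 in the shorter form, with 2 bases that complete the stop codon.

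Fst longer tail: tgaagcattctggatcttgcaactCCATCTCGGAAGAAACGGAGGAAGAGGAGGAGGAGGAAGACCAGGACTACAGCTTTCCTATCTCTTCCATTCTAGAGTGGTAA

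Fst shorter tail: tgaagcattctggatcttgcaactGA

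The counts do not separate these tails. Of 4 annotated coding transcripts, 1 had bases of its own, namely 682 bases, nearly all at the far 3′ end of the shorter-tail transcript, and the longer-tail transcript had 0. Of the 229 counts, 203 were on 1 protein accession and 26 on a transcript that retains introns and has 1241 own bases. Per own kilobase, this amounts to 298 counts (258 to 342) for the coding transcripts and 20.95 counts (13.7 to 30.7) for the retained-intron transcript. The ratio of these densities was 14.2 (9.42 to 22.3) in favour of the coding transcripts. Own bases were found by taking each coding transcript as a separate ID, but Fst has fewer protein accessions than coding transcripts. The 682 bases may therefore be too few and the ratio too high, which the interval does not cover. On this treatment the other Fst exons are shared and could hardly be counted, so the counts were not compared between exons.

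**Figure D2:**
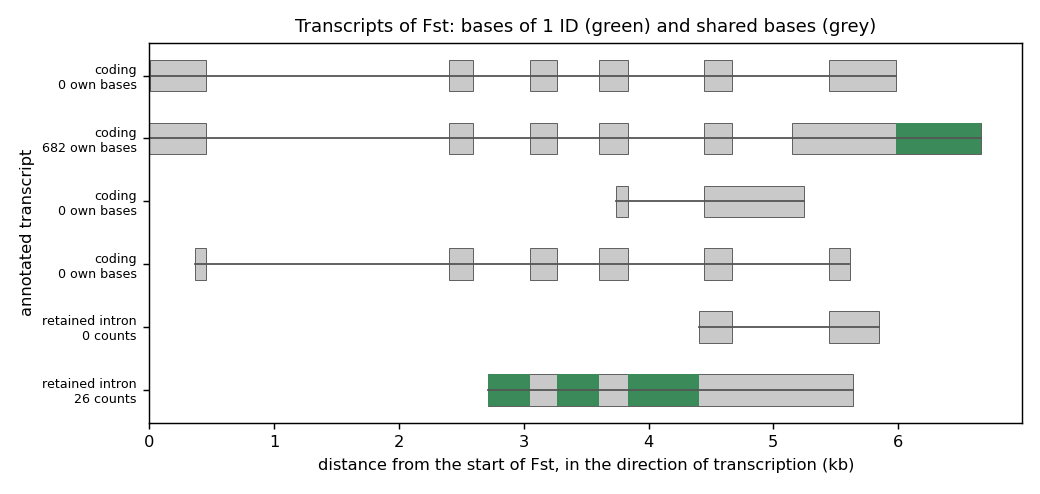
The 6 annotated transcripts of Fst against the distance from the gene start in kilobases, with boxes for exons, green for bases of 1 listed ID and grey for bases shared by several. Each coding transcript is taken as a separate ID. On this treatment those with 0 own bases could hardly receive counts, and the one with 682 own bases carries them at its 3′ end. The lower retained-intron transcript, with 26 counts in replicate 1, carries its green bases inside introns of the others.

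The order of Kitl and Fst depended on the length used. Kitl exceeded Fst 1.54-fold per exonic kilobase in replicate 1 (1.31 to 1.81), but the ratio was 1.01 (0.858 to 1.19) per kilobase that belongs to 1 ID. On this second scale, Kitl had 120 counts per kilobase (109 to 132) and Fst had 119 (104 to 136), which do not differ beyond counting error. Both genes have fewer protein accessions than coding transcripts, so their lengths on this scale are uncertain, which the intervals do not cover. Inhba lay well below both on either scale, by 18.8-fold (12.7 to 29.1) from Kitl and 12.3-fold (8.16 to 19.2) from Fst per exonic kilobase. Thus in replicate 1 Kitl and Fst stood together at the top and Inhba followed, while the limits of the uncounted genes place them below Kitl and Fst but not all of them below Inhba.

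Fstl3, a relative of follistatin that also binds activin, had 0 counts in both libraries (chr10:79777272-79782630, plus strand). However, 726 of its 2445 exonic bases, or 29.7%, belonged to 1 ID, and 1288 bases were free of any other gene, so its 0 carries less weight than the 0 of Inhbb. Per kilobase of 1 ID, Kitl exceeded the 3-count limit of Fstl3 29.0-fold, leaving out the counting error of Kitl, whereas Inhba did not exceed it. Among protein-coding genes with 300 to 1000 such bases, 20.4% reached 3 counts in replicate 1, against 48.9% of those with 3000 or more.

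Amh (chr10:80805243-80807648, plus strand), Gdf9 (chr11:53431023-53437904, plus strand) and Bmp15 (chrX:6314107-6320721, minus strand) had 0 counts in replicate 1. Amh, for which all 1670 exonic bases were countable, and Gdf9, with 1458 of 2031, had 0 in replicate 2 as well. In replicate 1, 3 counts equal 1.18 FPKM for Amh, 0.974 FPKM for Gdf9 and 0.646 FPKM for Bmp15. Per kilobase of 1 ID, Kitl exceeded the 3-count limits of Amh, Gdf9 and Bmp15 66.8-fold, 58.3-fold and 122-fold, leaving out the counting error of Kitl. In replicate 2, 1 count fell on an ID that could be Bmp15, Dgkk, Nudt10 or Shroom4. The limits in that library were 144 FPKM for Amh and 119 FPKM for Gdf9, so the statement on these oocyte and granulosa ligands rests on replicate 1.

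**Figure D3:**
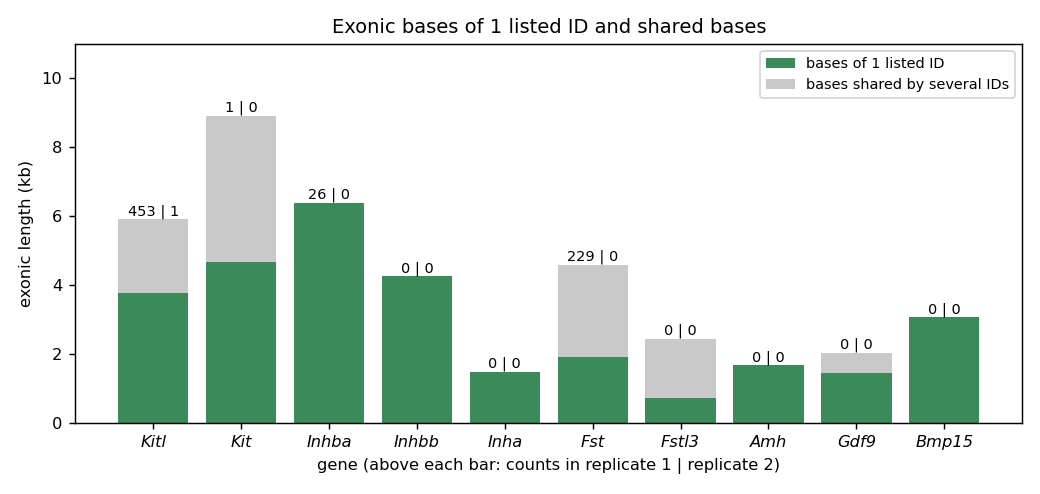
Exonic length of each gene in kilobases, split into bases of 1 listed ID (green) and bases shared by several IDs (grey), with the counts in replicate 1 and replicate 2 above each bar. Inhbb and Amh have 0 counts although all their bases are of 1 ID, and Fstl3 has 0 counts with 29.7% of its bases of 1 ID. The IDs of Inha and Bmp15 could also belong to another gene, and the 1 count on each in replicate 2 is not drawn.

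**Figure D4:**
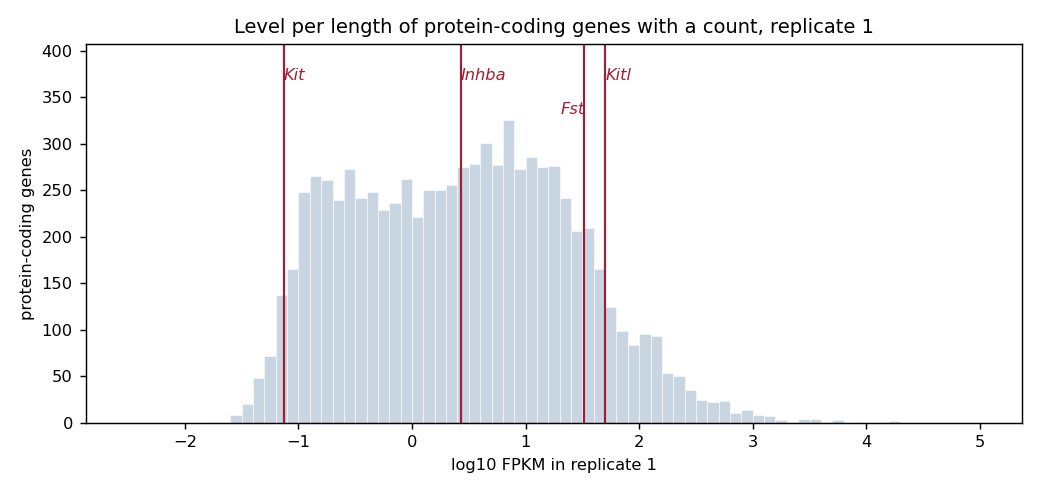
Number of protein-coding genes per interval of log10 FPKM in replicate 1, for the 8089 genes with a count, with red lines at the genes of the list that were counted. Kitl at 50.5 FPKM and Fst at 32.9 FPKM lie in the upper tail, Inhba at 2.68 FPKM lies near the middle, and Kit at 0.074 FPKM lies at the lower edge.

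The receptors of these ligands were counted in part. Of 8 receptors and co-receptors of activin and inhibin, 4 had at least 3 counts in replicate 1 and 1 did in replicate 2. Tgfbr3, the co-receptor known as betaglycan that binds inhibin, had 1196 and 0 counts, which is 788 CPM and 120 FPKM in replicate 1. The 0 of replicate 2 allows up to 241 CPM, below the level of replicate 1, so the libraries lay apart for Tgfbr3 and its level holds for replicate 1 alone. Among the type 1 receptors, Acvr1 had 63 and 1 counts (8.60 FPKM in replicate 1), Acvr1b, the main receptor kinase for activin, had 15 and 0 (2.24 FPKM), and Acvr1c had 1 and 0. The type 2 receptors that bind activin directly were sparse, with 3 and 0 counts for Acvr2a and 0 and 5 counts for Acvr2b. The 5 counts of Acvr2b in the shallow library equal 402 CPM and stood beside 0 in the deep library, where 3 counts are 1.98 CPM. Whether these 5 counts come from more than 1 molecule is not known, and the difference between the libraries was not tested. Bambi, a decoy receptor, and Tdgf1 were at 0 in both libraries.

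Of 5 receptors for AMH, GDF9 and BMP15, 3 had at least 3 counts in replicate 1 and 0 did in replicate 2. Bmpr2, the type 2 receptor for GDF9 and BMP15, had 438 and 2 counts (16.1 FPKM in replicate 1). Tgfbr1, the type 1 receptor used by GDF9, had 127 and 0 counts (12.8 FPKM), and Bmpr1a had 114 and 1 counts (11.8 FPKM). Bmpr1b, the type 1 receptor for BMP15, had 0 counts on its own IDs, while an accession that could be Bmpr1b or its neighbour Pdlim5 held 271 counts in replicate 1, so its level is uncertain. Amhr2, the receptor that binds AMH alone, had 0 counts in both libraries, as had its ligand. However, 273 of the 2005 exonic bases of Amhr2 belonged to 1 ID. Of protein-coding genes with fewer than 300 such bases, 7.89% reached 3 counts in replicate 1, so this 0 carries little weight.

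The SMAD proteins that carry these signals to the nucleus, with their ligases, gave 7 of 10 in replicate 1 and 2 of 10 in replicate 2. Smad2, which activin and GDF9 activate, had 246 and 0 counts, Smad1, which BMP15 and AMH activate, had 76 and 0, and the shared partner Smad4 had 41 and 0. The inhibitory Smad7 had 50 and 7 counts, and the related Smad5 had 26 and 4. Over the 6 partner lists, 27 of the 63 genes with an ID of their own, or 42.9%, had at least 3 counts in replicate 1 and 5, or 7.94%, in replicate 2, beside the 33.3% and 3.83% of all protein-coding genes.

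**Figure D5:**
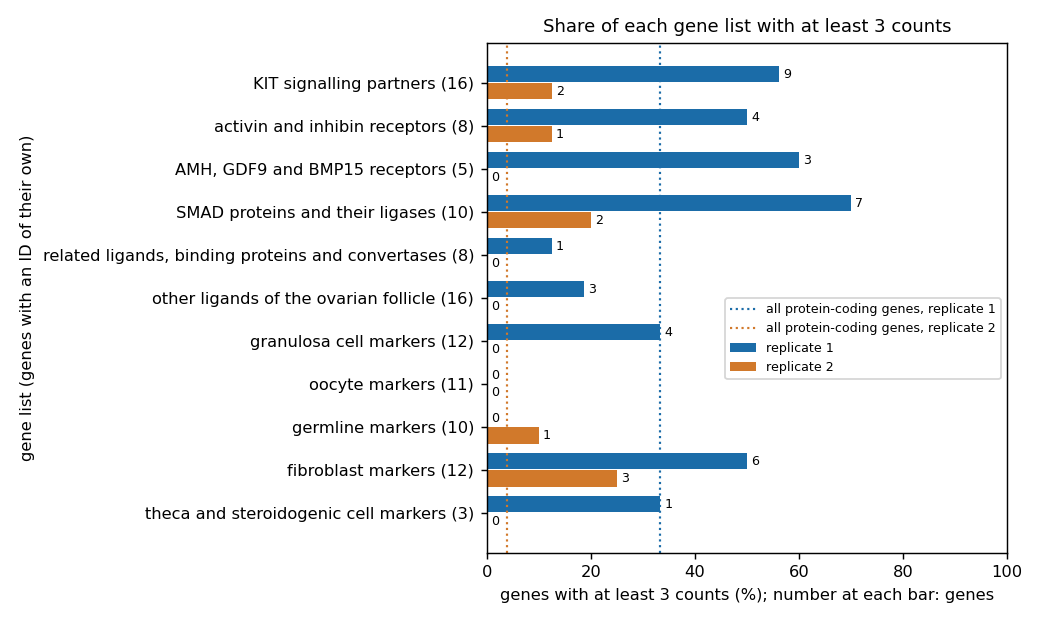
Percent of the genes of each list with at least 3 counts in replicate 1 (blue) and replicate 2 (orange), with the number of genes at each bar and dotted lines at the share of all protein-coding genes. The SMAD list is the highest at 7 of 10 genes in replicate 1, the lists of related and other follicle ligands stand at 1 of 8 and 3 of 16, and the oocyte list is at 0 in both.

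Of 8 related ligands, binding proteins and convertases with an ID of their own, 1 had at least 3 counts in replicate 1, namely Fstl1, a secreted glycoprotein of the follistatin family, with 84 and 0 counts. Of 16 other follicle ligands, 3 did, namely Fgf7, a growth factor that mesenchymal cells make for epithelia, with 632 and 0 counts (128 FPKM in replicate 1), the EGF-family ligand Ereg with 158 and 0 counts (25.2 FPKM), and Ihh with 5 and 0 counts. Fgf7 stood at 417 CPM in replicate 1. Its 0 in replicate 2 allows up to 241 CPM, so this level holds for replicate 1 alone. Bmp4, which was present in the medium as a protein, had 0 counts in both libraries. The 3 protein-coding genes that lay nearest to Kitl in log2(CPM + 1) over the 2 libraries were the kinase gene Map2k1 and Srek1, with the same 453 and 1 counts, and Ythdf3, with 455 and 1. With 2 libraries, this likeness describes a level and no shared pattern.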

How the data were processed

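The authors deposited a raw count per ID for 129311 IDs in each library, of which 76066 are Ensembl transcripts and 53245 are protein accessions. The submitters' processing notes name FastQC, Trim Galore, HISAT2 2.2.1, featureCounts and mm10, whereas the methods of the study describe TopHat and Cufflinks. The annotation, the strand setting and the handling of shared reads are not given in the sources used here.

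No file used here pairs a protein accession with a gene, so these genes were inferred. Because IDs follow chromosome and start, each accession was placed among the unlisted coding transcripts between its annotated neighbours (GENCODE M21, GRCm38), which gave a single gene for 45502 (85.5%). Tested on 37596 Ensembl IDs whose gene was hidden, 21628 were placed in 1 gene, 99.9% of them correctly. Counts of all IDs of a gene were summed, and IDs with several candidate genes were kept apart (86.8% of the counts in replicate 1 and 91.9% in replicate 2 were on IDs of 1 gene). CPM used the library total, and FPKM also the union of exons. Intervals are exact Poisson or binomial 95% intervals (Python 3.11.15, scipy 1.17.1). Alternative totals came from edgeR 4.0.16 and DESeq2 1.42.0. With a single group no test was run.

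The 10 genes and the lists were chosen with earlier results of these data known. Named were all 10 genes, from each list at most the 4 genes with most counts in replicate 1 among those with at least 3 counts in either library, every receptor of a listed ligand, and the 3 protein-coding genes nearest to the most abundant gene. Further names (Foxo3, Smad5, Pik3ca, Bmp4 and single markers) were chosen after their values were seen, and 1 gene that the rule names is not reported here.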

Additional observations from a re-analysis of the deposited data

How the results depend on the processing

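No paired analysis was possible because the design holds 1 group. Of 52 alternative values, 39 stayed within the spread between the libraries (or within 1.5 times for a count of genes) and 13 moved. That spread is the SD of 2 libraries, so a level with either library left out lies within it by construction. For Fst and Inhba, at 0 in replicate 2, the SD exceeds the mean, so even a fall to 0 stays within it. Staying within the spread is therefore no sign of stability for these values. The mean FPKM of Fst fell from 16.4 to 1.87 with Ensembl IDs alone and to 0 without replicate 1. Both values lay within the spread, as any fall of Fst would. Genes of the list with at least 3 counts in either library numbered 3, and partner genes 28. Leaving out each library gave 0 to 3 and 5 to 27, the lower value without replicate 1, since replicate 2 is too shallow to count genes at these levels. With Ensembl IDs alone, partner genes numbered 5, with 8% of all protein-coding genes at 3 counts in either library in place of 35.2%, and the mean FPKM of Kitl fell from 32.1 to 0.167, because nearly all its counts are on a protein accession whose gene is inferred. The mean of the summed CPM was 274, and it moved to 745 with TMM totals and 703 with median ratio totals. Mean FPKM under these totals was 81.3 and 76.8 for Kitl, 51.5 and 48.5 for Fst, and 4.20 and 3.96 for Inhba. The median share of exonic bases that could be counted was 85.9%, and rose to 100% when IDs of the same gene were allowed to share a base. Leaving out each library gave 80.4 to 467 for the summed CPM and 13.6 to 50.5 for the FPKM of Kitl.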
